A study of Mus musculus with 18 samples.

Results

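At a tandem 3′ splice site, 2 acceptors lie so close together that the exon can start at either of them, and here only pairs 3 nucleotides apart were taken. They were the events of the deposited splicing table of type Alt3 with 2 sites, a length of 3 for the upstream site, and coverage in all 18 libraries. Of 3842 annotated pairs at this distance, 1870 met this in 1595 genes, out of 661941 annotated events of all types and 368707 with coverage in all libraries. The pairs left out numbered 1972, of which 1235 had coverage in no library and 66 had it in 17. PSI was the percentage of reads that used the upstream site, so a PSI of 100 stands for an exon that always carries the 3 additional bases, and a PSI of 0 for one that never does. Each PSI rested on at least 15 reads, with a median of 203 reads for a member in a library. The reads on all members summed to between 691060 and 819486 per library.

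The RNA came from MEFs, mouse embryonic fibroblasts of the genotype Collagen-OKSM, M2rtta+, in which doxycycline switches on OCT4, SOX2, KLF4 and MYC (OSKM) in every group after day 0. In the knockdown dataset, non-infected cells at day 0 (KD NI) were set beside day 12 cells that carried a lentiviral scrambled shRNA (shSCR), 1 of 2 shRNAs against Cpsf3 (shCPSF3#1, shCPSF3#2) or 1 of 2 against Hnrnpul1 (shUL1#1, shUL1#2). In the overexpression dataset, non-infected cells at day 0 (OE NI) were set beside day 12 cells that carried an empty retroviral vector (Empty) or T7-tagged TIA1 from the same vector (T7-TIA1). Each of the 9 groups had 2 libraries, from primary cells of male embryos. Infected cells were sorted for GFP, grown on irradiated feeder cells and harvested as a whole dish, so that day 0 and day 12 also differ in infection, sorting and feeders. The sources do not say whether the 2 libraries of a group came from separate cultures, so every p measures the spread between those libraries only.

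An intron ends in the dinucleotide AG. During the second step of splicing, the spliceosome picks the AG that is joined to the upstream exon, usually the first one after the branch point and the pyrimidine-rich stretch. Where NAG follows NAG, both can be used, and the mRNAs differ by 3 bases, which in coding sequence keeps the frame and mostly adds, removes or exchanges single amino acids, but can also bring in a stop codon. The base before each AG is known to matter, with cytosine and thymine favoured over adenine and guanine.

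The sequences below show such sites for members on which the results turn, read from GENCODE transcripts on mm10 and written 5′ to 3′. The first 4 run from 20 bases before the upstream exon start to 10 bases into the exon, and the capitals mark the 6 bases that hold both acceptors. Usp10 (chr8:119941090-119941119, plus strand), Lsm7 (chr10:80854702-80854731, minus strand) and Ssr4 (chrX:73788815-73788844, plus strand) have the same 6 bases, and Galt (chr4:41756324-41756353, plus strand) has a thymine before its downstream AG. All 4 pairs are in coding sequence. The Galt exon begins between codons, so that its upstream site puts the stop codon TAG in frame, as in 8 members in all, of which 3 used both sites and whose median PSI was 5.11.
Usp10: gactggtcatttcttctCAGCAGgacagga
Lsm7: ctcagcgccccacctccCAGCAGgacaaag
Ssr4: gctttgcctcctctccaCAGCAGaggcctg
Galt: ttctagcctattcttgtCAGTAGgtgaatc

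For the members below, only spliced transcripts were at hand. The lower case letters are 12 bases of the exon before and 12 bases of the exon itself, and the capitals are the 3 bases that only the upstream site includes. Pprc1 (chr19, upstream exon start at 46062141, plus strand) and Odf2 (chr2, 29912566, plus strand) are among the members with the smallest adjusted p below. Cct7 (chr6, 85464780, plus strand) has a guanine before its downstream AG and still used both sites. All 3 are in coding sequence.
Pprc1: gattttggagagCAGagcagattatct
Odf2: cactgcaaagagAAGgattccgagaga
Cct7: ggagccctggagGAGtctcagctagtt

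Most members used almost only the upstream site. The mean PSI over the 18 libraries was above 90 in 1265 members (67.6%), below 10 in 160 (8.56%) and from 10 to 90 in 445 (23.8%). In 2-site Alt3 events at other distances, 474 of 23930 (1.98%) had a mean PSI from 10 to 90, and in 2-site alternative 5′ splice sites 625 of 18918 (3.30%) had one. The 445 members that used both sites carry most of the results below. Outside them, the group means spanned at least 10 PSI in 12 members.

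The use of the upstream site differed with the base before the AG of the downstream site. The 3 bases between the sites could be read from a transcript for 1714 members, of which 1711 ended in AG. With cytosine there, the median of the mean PSI was 76.4 over 463 members (quartiles 46.0 and 91.7), and 63.3% of them used both sites. With thymine it was 85.4 over 93 members, and 48.4% used both. With adenine it was 98.2 over 495 members, and 10.7% used both. With guanine it was 99.8 over 660 members, and 9 of them (1.36%) used both, Cct7 among them. A cytosine or thymine before the second AG thus went with a downstream site that was used, and a purine with one that was hardly used. The 156 members without such a transcript had a median of 1.73, and none of them had an annotated exon start at the upstream site, so the classes are tilted towards pairs whose upstream site is annotated.

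**Figure D1:**
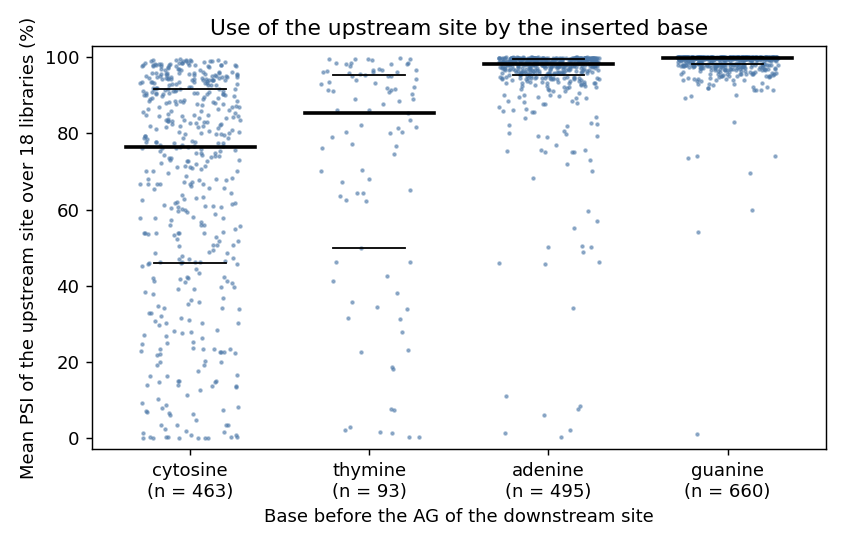
Mean PSI of the upstream site over 18 libraries (vertical axis, percent) for members grouped by the base before the AG of the downstream site. Each point is a member, the wide line the median and the short lines the quartiles. The medians were 76.4 with cytosine, 85.4 with thymine, 98.2 with adenine and 99.8 with guanine.

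The base before the first AG could be read for 199 members whose intron is retained in an annotated transcript, and 196 of these had 2 NAGs in a row. The commonest were CAGCAG and CAGGAG, with 41 members each. CAGCAG had a median PSI of 74.0, and 70.7% of its members used both sites. CAGGAG had a median of 99.8, and 0 of 41 used both. With CAG as the second triplet, the medians differed with the base before the first AG. TAGCAG had 82.0 (13 members, quartiles 22.2 and 90.6), CAGCAG 74.0, AAGCAG 13.8 (10 members, quartiles 7.44 and 61.6) and GAGCAG 0.523 (6 members). The quartiles of TAGCAG and CAGCAG overlapped (46.9 and 91.0 for the latter), so their order is not separated. GAGTAG, with 5 members, had a median of 1.14. The members of a class are different genes with different sequences around the sites, and no test was made between classes.

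The annotation of the exon starts went with the use of the sites. In 1241 members only the upstream site is an annotated exon start in GENCODE, and 6.77% of them used both sites in these cells. In 449 both are annotated, with a median PSI of 72.8, and 69.3% used both. In 179 only the downstream site is annotated, with a median of 1.69, and 27.4% used both. The pairs were in coding sequence in 1767 members, in the 5′ UTR in 91 and in the 3′ UTR in 7. In coding sequence 393 of 1767 used both sites, and in the 5′ UTR 46 of 91 did. In 1712 coding members the frame at the junction was the same in all transcripts: 814 exons began between codons, 638 after the first base of a codon and 260 after the second, with median PSI of 98.0, 96.8 and 95.7.

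Across the groups, most of these choices moved little. The median PSI of the 1870 members lay between 97.0 and 97.2 in all 9 group means, and the share of members with a PSI from 10 to 90 between 23.2% (shCPSF3#2) and 24.5% (KD NI). PSI in KD NI and OE NI, which share no library, had a Pearson r of 0.97 over the 445 members that used both sites. Within those 445, the 2 libraries of a group differed by a median of 3.38 PSI, with a 95th percentile of 14.1, and the group means spanned a median of 9.27. The span reached 10 in 199 of the 445 and 20 in 28. The median PSI over the 445 was lowest in shSCR, at 61.3, against 65.6 in KD NI and between 64.8 and 66.1 in the 4 knockdown groups. It was 65.6 in OE NI, 63.3 in Empty and 66.2 in T7-TIA1.

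The targeted genes were checked first. Their levels are given as CPM relative to a library size that the authors scaled. Cpsf3, the endonuclease of pre-mRNA 3′ end processing, was at 86.7 and 118 scaled CPM in shSCR. It was at 38.6 and 50.0 in shCPSF3#1, and at 42.4 and 77.1 in shCPSF3#2 (limma, both shRNAs against shSCR, adjusted p = 0.0207). Replicate 2 of shCPSF3#2 was thus close to KD NI (84.7 and 82.2). Hnrnpul1, an RNA-binding protein of the hnRNP U family, was at 156 and 185 in shSCR and between 38.7 and 85.8 in the 4 shUL1 libraries (log2 fold change −1.52 ± 0.23 (SE), limma, adjusted p = 0.0101). Tia1, which binds U-rich RNA next to 5′ splice sites, was at 85.6 and 77.0 in Empty and at 613 and 469 in T7-TIA1 (limma, log2 fold change 2.71 ± 0.21, unadjusted p = 2.35e-05, adjusted p = 0.222). In this comparison 0 of 9472 genes passed the adjusted cut, Tia1 included. A count of 0 there thus does not show that levels were unchanged. Tia1 was also higher in the Cpsf3 and Hnrnpul1 knockdowns than in shSCR (0.36 ± 0.10 and 0.54 ± 0.10, limma, adjusted p = 0.0335 and 0.0166), and Cpsf3 higher in Empty than in OE NI (0.45 ± 0.12, limma, adjusted p = 0.0302). Marker levels also differed between the groups. The 8 fibroblast markers, all listed, summed to between 17500 and 20800 scaled CPM in KD NI, 6400 and 6710 in shSCR, and 14300 to 29800 in the knockdown groups. In the other dataset they summed to 20000 and 42800 in OE NI, 6660 and 7510 in Empty, and 5530 and 5930 in T7-TIA1. In the knockdown dataset 2 of 5 epithelial markers were listed, at 298 and 539 in shSCR against at most 20.4 in KD NI and 31.7 to 221 in the knockdown groups, and 1 of 3 macrophage markers, at 4.35 to 80.9 over all groups. In the other dataset 0 of the epithelial and macrophage markers were listed. In either dataset 0 of 6 pluripotency and 0 of 3 endothelial markers were, so the state of the cells could not be checked by them. In bulk RNA, fewer cells of a type and less RNA per cell cannot be told apart.

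The comparison of shSCR with KD NI asks how site choice differed after 12 days of OSKM in cells with a control shRNA. Members mostly had a lower PSI, that is, more use of the downstream site. Of the 445 members that used both sites, 308 (69.2%) had a lower mean PSI in shSCR, with a median difference of −2.60. Over 2-site Alt3 events at other distances 237 of 474 were lower, with a median of 0.055, and over 2-site alternative 5′ splice sites 348 of 625 (55.7%), with a median of −1.10. Over all 15044 events with a mean PSI from 10 to 90 it was 42.9%, with a median of 1.38. The counts by class were as follows. With cytosine before the downstream AG 212 of 293 members were lower (median −3.39) and with thymine 30 of 45 (median −1.75), while with adenine 27 of 53 were lower (median −0.165) and with guanine 5 of 9 (median −0.17). Of the 44 members whose bases could not be read 33 were lower, with the largest median, −3.81. These are counts over genes that share libraries, and no test was made between the classes.

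Member by member, reads at both sites were compared as log2 of upstream over downstream reads, tested with limma at a Benjamini-Hochberg adjusted p under 0.05 over all events. Of the 1275 members with enough reads, 31 (2.43%) were called, 23 lower and 8 higher in shSCR. Of all 153543 events tested 6.05% were called, 1.80% lower and 4.25% higher, and of the other 2-site Alt3 events 179 of 5670 were called, 84 lower and 95 higher. The members' share was thus under the background, and for lower calls alone it was at the background. The called members had a median difference of 11.0 PSI, from 1.56 to 23.1. In a fit without weights 5 members and 1.39% of all events were called. The number called fell to between 3 and 16 when 1 library was left out (3 without KD NI replicate 2, 6 without shSCR replicate 1, 13 without KD NI replicate 1, 16 without shSCR replicate 2). In the same fits 1.99%, 2.30%, 2.46% and 3.76% of all events were called.

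A second rule, which holds no test, asked for at least 10 PSI between means and at least 5 PSI between the nearest libraries. By this rule 48 of 1870 members passed, 41 lower and 7 higher, against 1.22% of all events, 0.470% lower and 0.750% higher. This background is low because few other events use both sites, so a matched one was added after the data had been seen. Among events with a mean PSI from 10 to 90, 47 of the 445 members passed (10.6%), 41 lower (9.21%) and 6 higher (1.35%). Of all 15044 such events 23.8% passed, 9.21% lower and 14.6% higher, and of the 474 other 2-site Alt3 events 20.5%, 10.8% lower and 9.70% higher. The share of members that were lower equalled that of all events, and the share that were higher was the one under its background.

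Usp10, a deubiquitinase, had a PSI of 72.3 and 73.3 in KD NI and of 57.3 and 58.6 in shSCR. The 8 knockdown libraries lay between 68.5 and 73.3, and the 6 of the other dataset between 63.6 and 72.4. Both shSCR libraries were thus below the 16 others. The log2 ratio differed by −0.95 ± 0.18 (SE) between shSCR and KD NI (limma, adjusted p = 0.00456).

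Pprc1, a transcriptional coactivator related to PGC-1α, behaved alike at a lower level, with 28.9 and 30.6 in KD NI and 17.0 and 15.3 in shSCR. The 8 knockdown libraries lay between 26.2 and 31.9, and the OE libraries between 24.1 and 30.3. The groups did not overlap, and the log2 ratio differed by −1.14 ± 0.21 (limma, adjusted p = 0.00375). Odf2, a protein of sperm tails and centrioles, mostly used its downstream site, with 12.3 in both KD NI libraries and 4.16 and 6.35 in shSCR, against 8.81 to 14.5 in all others. Its log2 ratio differed by −1.30 ± 0.25 (limma, adjusted p = 0.00431), the largest relative change of these 3 members and the smallest in PSI.

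Larp4 (chr15, 99984917, plus strand, coding), an RNA-binding protein that acts on poly(A) tails, moved the other way. Its upstream site was almost unused in KD NI, at 0.50 and 0.41, and was at 5.83 and 5.76 in shSCR (log2 ratio 2.87 ± 0.58, limma, adjusted p = 0.00627). It was at 0.81 and 1.58 in OE NI, 4.31 and 5.46 in Empty and 4.46 and 4.80 in T7-TIA1, so that all day 12 libraries, from 1.68 upwards, were above all day 0 libraries. Between Empty and OE NI the difference did not pass the test (1.73 ± 0.58, limma, adjusted p = 0.167).

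The 4 members with the largest difference by the PSI rule were Slc39a11, Cobll1, Nol3 and Parp11, all lower in shSCR by their means. Cobll1 is a coding site and the other 3 are in the 5′ UTR. Slc39a11, a zinc transporter, was at 74.3 and 70.7 in KD NI and 51.4 and 47.4 in shSCR (−1.41 ± 0.36, limma, adjusted p = 0.0255). Nol3, an inhibitor of apoptosis, was at 33.3 and 29.2 in KD NI and at 9.09 and 10.5 in shSCR (−1.92 ± 0.44, limma, adjusted p = 0.0139). Both KD NI libraries were above the 16 others, with OE NI at 11.8 and 19.7. Cobll1 was at 66.8 and 64.2 in KD NI and at 29.3 and 57.4 in shSCR, and its libraries spread from 48.9 to 100 in the other dataset (limma, adjusted p = 0.361). Parp11, an ADP-ribosyltransferase, was at 92.6 and 91.3 in KD NI and 68.5 and 76.5 in shSCR, a difference that did not pass the test on reads (limma, adjusted p = 0.151).

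Timp1 (chrX, upstream exon start at 20871031, plus strand, 5′ UTR), an inhibitor of matrix metalloproteases, carried the most reads of the members with a mean PSI between 25 and 75, from 1190 to 18700 per library. Its PSI was 43.2 and 42.2 in KD NI, 31.6 and 32.8 in shSCR, and between 39.7 and 44.5 in the 14 other libraries, with no overlap. The log2 ratio differed by −0.65 ± 0.16 (limma, adjusted p = 0.0199). The other 3 most covered members, Cct7 (a chaperonin subunit), Ly6e (a GPI-anchored surface protein) and Ssr4 (a subunit of the translocon-associated complex), did not pass. Ssr4 stayed between 71.8 and 76.6 in all 18 libraries, although its 6 bases are those of Usp10. Ly6e was at 62.4 and 68.0 in KD NI and 54.0 and 57.7 in shSCR (limma, adjusted p = 0.0541).

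**Figure D2:**
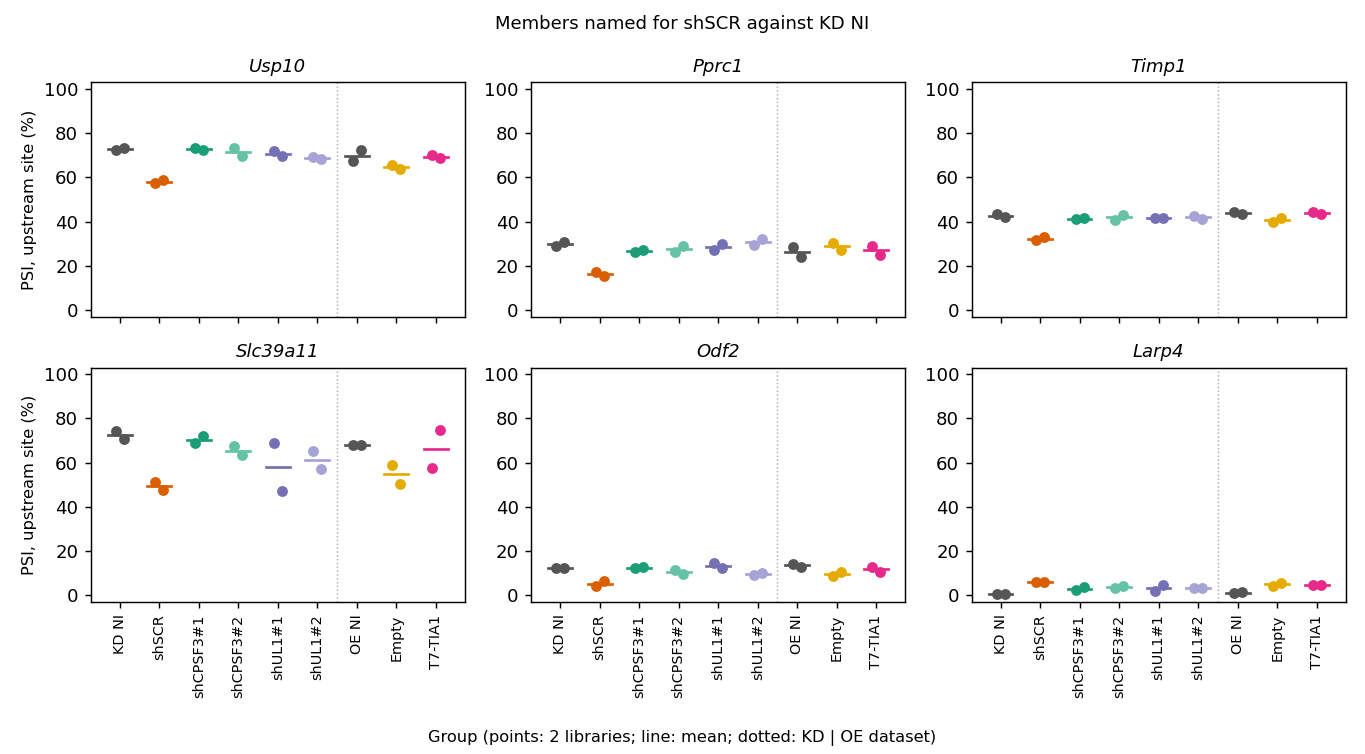
PSI of the upstream site (vertical axis, percent) in each of the 18 libraries, by group, for 6 members named for shSCR against KD NI. Points are libraries, lines the means of 2, and the dotted line divides the KD from the OE dataset. In Usp10, Pprc1, Timp1 and Odf2 both shSCR libraries lie below the 16 others.

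Counted over all groups, shSCR had the most members in which it was the lowest. Both shSCR libraries were below the 16 others in 55 of the 445 members that used both sites (12.4%), against 4.71% of all such events and 5.49% of the 474 other 2-site Alt3 events. Both were above the others in 3 members (0.674%), against 6.39% of all such events. For the other day 12 groups of the KD dataset, the counts below the rest were 4 in shCPSF3#1, 2 in shCPSF3#2 and 0 in both shUL1 groups, against 1.44%, 0.306%, 0.253% and 0.432% of all such events. The counts above the rest were 6 in shCPSF3#1, 1 in shCPSF3#2, 0 in shUL1#1 and 2 in shUL1#2, against 1.49%, 0.319%, 0.864% and 0.545%. KD NI was below the rest in 4 members and above it in 6, against 5.22% and 2.13% of all such events. OE NI was below in 3 and above in 5, against 2.19% and 1.72%, and T7-TIA1 below in 1 and above in 5, against 1.64% and 1.53%. Empty was below in 4 and above in 2, against 0.565% and 0.485%. All these counts are at most 1.35% of the members. This count over groups was added after the data had been seen. Taken singly, shSCR replicate 1 was below the 16 libraries of other groups in 111 members and shSCR replicate 2 in 87, while each library of the other groups was below all those outside its own group in 10 to 27. Over all such events the single shSCR libraries were below in 10.1% and 10.5% and the KD NI libraries in 11.4% and 13.2%. Above the others, the shSCR libraries had 13 and 14 members, against 13.5% and 12.7% of all such events, and the other libraries 11 to 41. Within the KD dataset shSCR also had the lowest fibroblast and the highest epithelial marker sums, as given above. Fibroblast sums were similar in Empty (6660 and 7510) and T7-TIA1 (5530 and 5930), which were below the rest in 4 and 1 members. No epithelial marker was listed in that dataset. The part of these markers in the result was not tested.

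**Figure D3:**
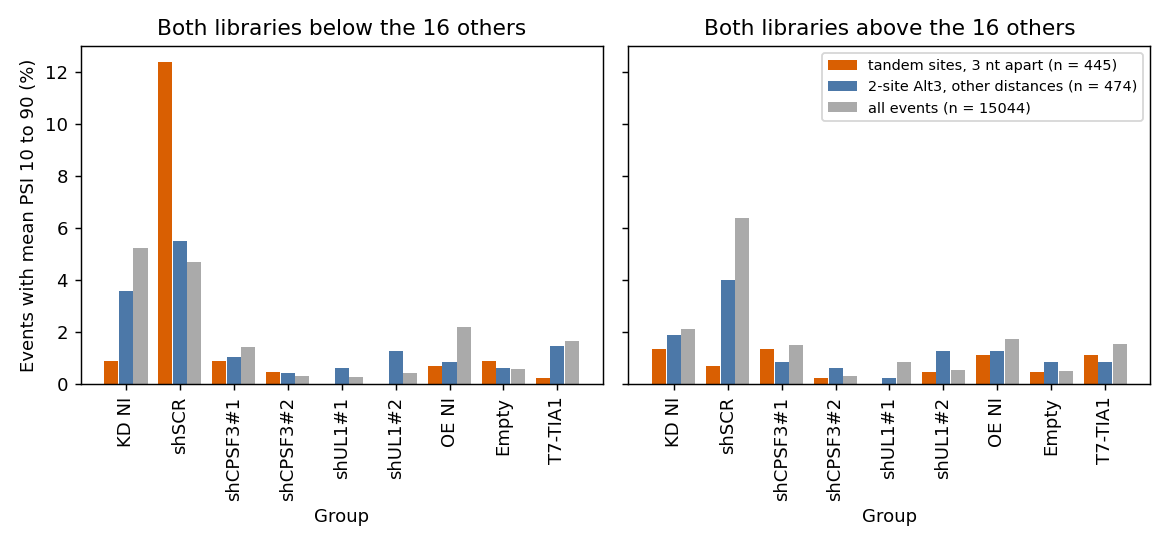
Share of events with a mean PSI from 10 to 90 (vertical axis, percent) in which both libraries of a group were below (left) or above (right) the 16 others, for the 445 tandem sites, 474 other 2-site Alt3 events and all 15044 events. The tandem sites reached 12.4% below in shSCR and at most 1.35% in any other group, in either direction.

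Empty against OE NI asks the same of the other dataset, with libraries of its own. Of the 445 members 259 (58.2%) had a lower mean in Empty, with a median of −0.86, against 57.2% of the other 2-site Alt3 events and 46.7% of all events. With limma on the reads, 0 of 1124 members were called, against 1.22% of all 118564 events, and 45 members had an unadjusted p under 0.05, as did 16835 of all events. The PSI rule passed 9 of 1870 members, 7 lower and 2 higher, against 0.679% of all events, 0.334% lower and 0.345% higher. Among events with a mean PSI from 10 to 90, 1.80% of the members and 13.2% of all events passed. The changes in the 2 datasets were only loosely alike, with a Pearson r of 0.212 over the 445 members. Of the 23 members called lower on reads in shSCR, 16 were also lower in Empty by the means, with a median of −3.35 PSI where shSCR had −11.7, and 1 was lower by 10 PSI or more. Of the 8 called higher, 3 were higher in Empty.

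**Figure D4:**
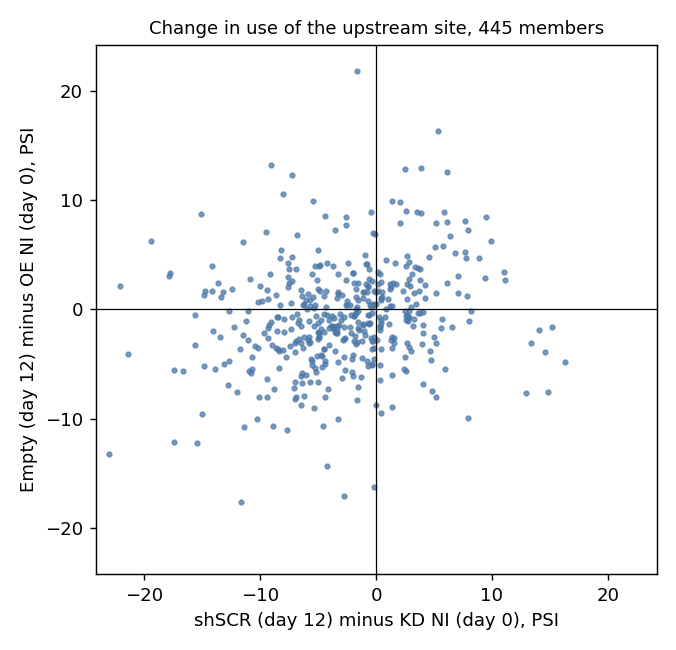
Difference in PSI between day 12 and day 0 for the 445 members with a mean PSI from 10 to 90, shSCR minus KD NI on the horizontal axis and Empty minus OE NI on the vertical axis. Each point is a member. The cloud is shifted to the left (median −2.60) and less so downwards (median −0.86), with an r of 0.212.

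The largest differences by the PSI rule in Empty were in 4 members. E430018J23Rik was at 82.1 and 77.8 in OE NI and 56.7 and 69.1 in Empty, and Dopey1 at 82.4 and 83.2 in OE NI and 65.3 and 67.8 in Empty. Slc39a11 was at 68.1 and 67.9 in OE NI and 59.1 and 50.5 in Empty, the only member of the 4 that also passed the rule in shSCR. Lsm7, a subunit of the ring that binds U6 snRNA, was higher in Empty, at 67.8 and 70.9 against 55.5 and 50.4 in OE NI, and is a CAGCAG site as printed above. None of the 4 passed the test on reads (limma, adjusted p from 0.169 to 0.357).

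Knockdown of Cpsf3 was compared with shSCR as the mean of both shRNAs. Of 1275 members 22 (1.73%) were called on reads, 20 higher and 2 lower, against 3.26% of all events and 1.76% of the other 2-site Alt3 events. Higher calls made up 1.25% of all events and lower calls 2.01%. In a fit without weights 0 members and 0.0137% of all events were called. By the PSI rule 26 of 1870 passed, 23 higher, against 0.428% of all events and 0.175% for higher calls. Among events with a mean PSI from 10 to 90, 5.17% of the members were higher and 0.674% lower, and 3.54% and 4.97% of all events. The median difference over the 445 members was 2.26 PSI, against 0.489 over the other 2-site Alt3 events and −0.446 over all events. All 8 knockdown libraries were compared with the same 2 shSCR libraries, the ones compared with KD NI above. Set against KD NI instead, an alternative chosen after the data had been seen, 6 members were called on reads, 4 higher and 2 lower, against 3.11% of all events, 2.08% higher and 1.04% lower. By the PSI rule against KD NI, shCPSF3#1 had 26 members, 13 in each direction, and shCPSF3#2 had 17, 7 higher and 10 lower. All events had 0.688% in the first, 0.395% higher and 0.293% lower, and 0.656% in the second, 0.384% higher and 0.272% lower. With a mean PSI from 10 to 90, 5.62% of the members and 13.8% of all events passed in shCPSF3#1, and 3.82% and 12.9% in shCPSF3#2. Leaving out 1 library moved the count of 22 to between 1 (without shSCR replicate 1) and 13, with 6 without shSCR replicate 2, 9 without shCPSF3#2 replicate 1 and 11 without shCPSF3#2 replicate 2, while the share of all events called was between 0.860% and 2.95%.

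The members named for Cpsf3 were in part those of the comparison before. Against shSCR, the log2 ratio was higher by 0.89 ± 0.16 in Usp10, 1.17 ± 0.22 in Odf2 and 0.97 ± 0.19 in Pprc1 (limma, adjusted p = 0.00564, 0.00609 and 0.00891). In each of these the knockdown libraries lay near KD NI, as given above.

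Galt, an enzyme of galactose metabolism, is the CAGTAG site printed above. It was at 19.3 and 17.7 in shSCR, 41.2 and 49.6 in shCPSF3#1, and 36.9 and 26.4 in shCPSF3#2 (1.44 ± 0.27, limma, adjusted p = 0.00731). KD NI was at 32.9 and 35.0, within the range of the knockdown libraries. 4932438A13Rik was at 53.6 and 51.1 in shSCR and between 67.2 and 81.1 in the 4 libraries (1.34 ± 0.32, limma, adjusted p = 0.0281), with KD NI at 59.8 and 73.1. Nbas, which acts in transport from the Golgi to the endoplasmic reticulum, was at 29.4 and 43.7 in shSCR and at 55.5 and 62.2 in shCPSF3#2, with both shCPSF3#1 libraries above shSCR as well (limma, adjusted p = 0.0668).

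Stat2, a transcription factor of interferon signalling, was the largest difference and a fall. It was at 94.9 and 97.8 in shSCR, 76.0 and 53.5 in shCPSF3#1, and 83.3 and 83.8 in shCPSF3#2 (−2.68 ± 0.61, limma, adjusted p = 0.0251). The 4 shUL1 libraries lay between 83.7 and 93.0. It was also the member that differed most between the non-infected groups, at 97.4 and 98.5 in KD NI and at 49.5 and 0 in OE NI. In the reference transcript (chr10:128283210-128283239, plus strand, the same window as above) the upstream site is preceded by CCT and has no AG, and the capitals hold only the AG of the downstream site. The sequence of these cells at the site was not examined, so its PSI may not stand for a choice between 2 AGs.
Stat2: ctctgatcactgtgaccCCTCAGgggccgc

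Knockdown of Hnrnpul1 was compared in the same way. Of 1275 members 12 were called on reads, all higher than shSCR, against 1.68% of all events and 0.759% for higher calls. In a fit without weights 0 members and 0 of all events were called. By the PSI rule 21 of 1870 passed, 20 higher, against 0.368% of all events and 0.168% for higher calls. Among events with a mean PSI from 10 to 90, 4.49% of the members were higher and 0.225% lower, and 3.26% and 3.90% of all events, and the median over the 445 members was 2.37 PSI, against 0.102 over the other 2-site Alt3 events and −0.05 over all events. Against KD NI 9 members were called on reads, 5 higher and 4 lower, against 3.40% of all events, 2.52% higher and 0.881% lower. For the PSI rule against KD NI, shUL1#1 had 21 members, 12 higher and 9 lower, and shUL1#2 had 16, 9 higher and 7 lower. All events had 0.728% in the first, 0.478% higher and 0.250% lower, and 0.665% in the second, 0.404% higher and 0.261% lower. With a mean PSI from 10 to 90, 4.49% of the members and 14.6% of all events passed in shUL1#1, and 3.60% and 12.9% in shUL1#2. The count of 12 fell to between 1 (without shSCR replicate 2) and 6 (without shUL1#2 replicate 2), with 2 without shSCR replicate 1 or shUL1#2 replicate 1, 3 without shUL1#1 replicate 1 and 4 without shUL1#1 replicate 2, while between 0.341% and 1.15% of all events were called.

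Pprc1 rose by 1.14 ± 0.19, Odf2 by 1.15 ± 0.21, Galt by 1.33 ± 0.27 and Usp10 by 0.74 ± 0.16 against shSCR on the log2 scale (limma, adjusted p = 0.00459, 0.00941, 0.0185 and 0.0228). The individual libraries of Galt were 45.6 and 47.5 in shUL1#1 and 34.8 and 21.4 in shUL1#2, so that 1 of 4 came near the shSCR level of 19.3. Over 13 alternative fits Galt was called in 7 and Usp10 in 8. Among the members with the largest differences by the PSI rule, Gab2, an adaptor of receptor tyrosine kinases, was at 63.0 and 65.0 in shSCR and between 80.0 and 91.1 in the 4 libraries. Akap13, an anchoring protein for protein kinase A, was at 51.5 and 59.4 in shSCR and between 66.2 and 76.8. Etv3, a transcriptional repressor of the ETS family, was at 41.4 and 45.2 in shSCR and between 52.7 and 61.4. Zfand2b, which acts with the proteasome, was the member among them with a lower PSI, at 82.1 and 93.0 in shSCR and between 51.9 and 70.0 in the 4 libraries, on 18 to 43 reads per library. These 4 did not pass the test on reads (limma, adjusted p = 0.108, 0.243, 0.319 and 0.0586).

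The shRNAs against the same gene were not told apart at these sites. With limma 0 members were called between shCPSF3#1 and shCPSF3#2, 0 between shUL1#1 and shUL1#2, and 0 between the 2 factors, with 62, 59 and 52 members at an unadjusted p under 0.05 (9477, 9032 and 11296 of all events), and 0, 0 and 5 calls over all 153543 events (0.00326% for the last).

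T7-TIA1 against Empty asks for the effect of more TIA1. With limma 0 of 1124 members were called on reads, against 0.0725% of all events, and 32 had an unadjusted p under 0.05, as did 7134 of all events. By the PSI rule 12 of 1870 members passed, 8 higher and 4 lower, against 0.342% of all events, 0.151% higher and 0.191% lower. They had a median of 51 reads, where the 445 members that used both sites had 168. Among events with a mean PSI from 10 to 90, 2.47% of the members and 4.85% of all events passed. Against OE NI 10 members passed, 7 higher and 3 lower, against 0.721% of all events, 0.351% higher and 0.370% lower. The median difference over the 445 was 0.88 PSI, with 39.3% lower, against −0.117 and 50.8% in the other 2-site Alt3 events and −0.115 and 51.1% in all events.

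Npr3, the clearance receptor for natriuretic peptides, was at 43.8 and 45.7 in Empty and 68.8 and 65.7 in T7-TIA1. The 16 libraries outside T7-TIA1 lay between 43.8 and 60.7, so that both T7-TIA1 libraries were the highest (1.21 ± 0.47, limma, adjusted p = 0.697). Ctif, which acts in translation through the nuclear cap-binding complex, was at 60.1 and 60.0 in Empty and 86.7 and 88.0 in T7-TIA1, but at 49.97 and 86.1 in OE NI, on 15 to 44 reads per library (limma, adjusted p = 0.799). Nat14, a protein of the N-acetyltransferase family, was at 54.2 and 61.1 in Empty and 72.9 and 77.1 in T7-TIA1, and Cntln, a centrosomal protein, at 78.5 and 83.7 and then 71.4 and 57.8 (limma, adjusted p = 0.673 and 0.812). Lsm7 was at 52.1 and 57.8 in T7-TIA1, near its OE NI level.

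**Figure D5:**
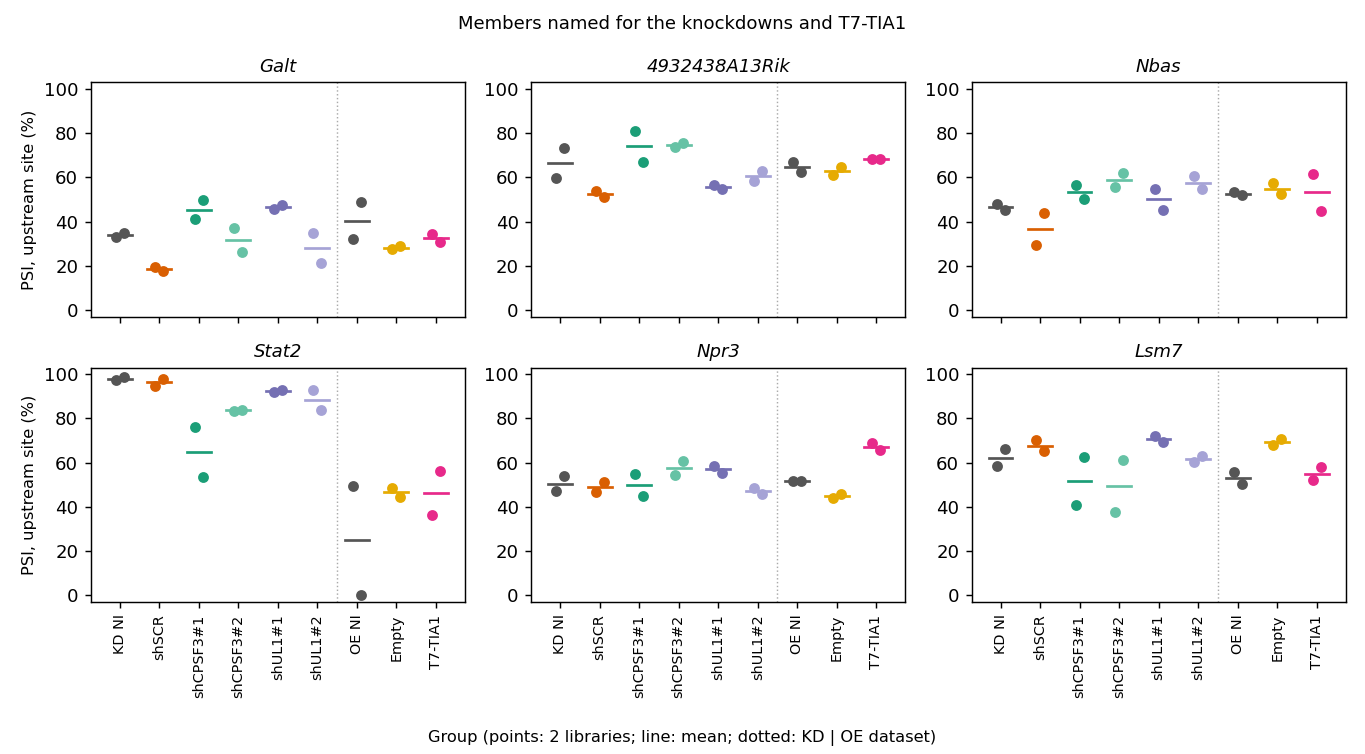
PSI of the upstream site (vertical axis, percent) in each library, by group, for 6 members named for the knockdowns, Empty or T7-TIA1. Points are libraries and lines the means of 2. Galt and 4932438A13Rik are low in shSCR, Stat2 is near 100 in KD NI and shSCR and below 60 in the OE libraries, and Npr3 is highest in T7-TIA1.

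The 2 non-infected groups, which were not the subject of a comparison in the study, differed by the PSI rule in 13 members, 7 higher and 6 lower in KD NI, against 0.280% of all events, 0.123% higher and 0.157% lower. Among events with a mean PSI from 10 to 90, 12 of the 445 members passed, against 4.71% of all events and 7.59% of the other 2-site Alt3 events. Next to Stat2, the list holds Parp11, at 91.9 in KD NI and 71.9 in OE NI by the means, and Nol3, at 31.2 and 15.7. For both, the OE NI mean lay nearer to shSCR than the KD NI mean did.

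A list of 32 genes that recognise the 3′ splice site or act in the second step was read in the expression tables, where 31 were listed. Between shSCR and KD NI 7 passed the test (limma on log2(scaled CPM + 1), Benjamini-Hochberg over 9435 genes), 4 higher and 3 lower, against 44.5% of all genes, 22.5% higher and 22.0% lower. The median log2 change of the list was −0.21, and that of all genes 5e-04. Without either KD NI library the count was 3. Zrsr1, a paralogue of the small U2AF subunit that reads the AG, rose from 5.80 ± 0.57 (SD, n = 2) in KD NI to 17.7 ± 2.33 scaled CPM in shSCR (log2 1.46 ± 0.20, adjusted p = 0.000811). The second-step factors Prpf18 and Slu7, which act when the AG is chosen, rose by 0.50 ± 0.10 and 0.37 ± 0.09 (limma, adjusted p = 0.00572 and 0.0124). Rbm39, which resembles the large U2AF subunit, rose by 0.52 ± 0.13 (limma, adjusted p = 0.0128). Sf3b4, a subunit of the U2 snRNP, fell by 1.07 ± 0.31, Cactin by 0.76 ± 0.13 and the helicase Dhx15 by 0.55 ± 0.17 (limma, adjusted p = 0.0223, 0.00278 and 0.0284).

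The means of Prpf18 and Rbm39 were highest in shSCR among the KD groups. Prpf18 was at 58.1 ± 0.656 scaled CPM in shSCR, 40.8 ± 1.82 in KD NI, and between 46.3 and 48.8 in the means of the 4 knockdown groups. It was lower in the Cpsf3 knockdown than in shSCR by −0.29 ± 0.09 and Rbm39 by −0.42 ± 0.11 (limma, adjusted p = 0.0464 and 0.0292), the 2 genes of the list that passed there, against 26.1% of all genes and 9.35% for lower ones. The count was 0 without shSCR replicate 1, shSCR replicate 2, shCPSF3#1 replicate 2 or shCPSF3#2 replicate 1, and 1 without shCPSF3#1 replicate 1. In the Hnrnpul1 knockdown 0 of 31 passed in limma, against 10.5% of all genes, with 2 at an unadjusted p under 0.05. A fit that blocked on replicate number passed 15 genes of the list between shSCR and KD NI, 6 in the Cpsf3 and 2 in the Hnrnpul1 knockdown, where 5608, 4698 and 2768 of all genes did. Zrsr1 and Slu7 do not share this order, since Zrsr1 was at 14.5 to 17.6 and Slu7 at 62.0 to 68.5 in the knockdown groups, near shSCR (17.7 and 63.8). Between Empty and OE NI 3 rose, Zrsr1 by 0.88 ± 0.15, Dhx8 by 0.42 ± 0.10 and Sde2 by 0.39 ± 0.12 (limma, adjusted p = 0.00713, 0.0238 and 0.0427), against 46.5% of all genes and 22.8% for higher ones. The number that passed was 11, all higher, without OE NI replicate 1 and 11, with 8 higher and 3 lower, without OE NI replicate 2, where 5978 and 5948 of 9472 genes passed. It was 1 without Empty replicate 1 (1473 genes) and 0 without Empty replicate 2 (2222 genes). With T7-TIA1 0 of 31 passed in limma at the adjusted cut, and 0 of all 9472 genes did, Tia1 included. Of the 31, 0 had an unadjusted p under 0.05. Whether these levels bear on site choice was not tested.

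The genes that held the members were looked up as well. Of the 31 members called on reads between shSCR and KD NI, 28 lay in listed genes, and 15 of these genes also changed in expression, against 44.5% of all genes. Usp10 and Pprc1 were not among them (log2 fold change −0.02 and −0.08), while Odf2 rose by 1.06 (limma, adjusted p = 0.963, 0.894 and 0.0471). In the Cpsf3 knockdown 4 of 21 listed hosts changed, against 26.1% of all genes, and in the Hnrnpul1 knockdown 0 of 11, against 10.5%. Hosts were counted only in the fit without the replicate block. With the block, 5608, 4698 and 2768 of all 9435 genes passed in these comparisons.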

How the data were processed

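RNA-seq was available for 18 libraries, 2 for each of 9 groups, taken from the labels and titles. For shUL1#2 and OE NI, 1 field of the labels gives another day than the titles, and the titles were used. Per the labels and the study's methods, stranded poly(A) RNA was mapped by the authors to mm10 with STAR 2.7.1a, and expression was obtained with edgeR 3.16.5 as CPM and filtered on level and variation. What the authors deposited is thus a signal, CPM on a library size that they scaled. The test had been planned for unscaled CPM and was kept. The authors quantified splicing with vast-tools and deposited PSI in percent for every event, with a text that holds the coverage score and the reads of each site. The score VLOW stands for at least 10 reads.

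The members, gene lists and tests were chosen with earlier results of these data known. Events entered the read test if every library of the dataset was scored VLOW or higher and the less used site had at least 10 reads in total. Their log2 ratio of reads, 1 read added to each, was fitted in limma 3.58.1 (R 4.3.3, robust) over all events of a dataset, with weights of 1/(counting variance + 0.05), two-sided. Expression was fitted in limma with the trend option on log2(scaled CPM + 1), a scale that understates the change of low genes. The 595 members not tested in the KD and 746 in the OE dataset had too few reads of the less used site, and a member that passes through 1 group can pass for its difference. Sequences came from GENCODE vM21 transcripts, no genome being used. In each comparison the 4 members with the largest |∆PSI| past the rule and the 4 with the smallest adjusted p were named, with the 4 most covered members of mean PSI 25 to 75. Alternatives changed the coverage score, the read prior, the weights, the minimum of reads, the thresholds, the block and the libraries. Figures and sets were made in Python 3.11.15.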

Additional observations from a re-analysis of the deposited data

Results flagged for a closer look

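Cct7 went in opposite directions in the 2 datasets between day 0 and day 12. Its PSI was higher by 2.85 in shSCR than in KD NI and differed by −3.41 between Empty and OE NI, with no overlap between the libraries in either case. The difference between the datasets was not tested, and neither change passed limma on the reads (adjusted p = 0.504 and 0.657). Groups of 2 libraries were too small for a test of single outlying libraries.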

How the results depend on the processing

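The counts of members called on reads depended on the fit. Without weights they were 5 for shSCR against KD NI (1.39% of all events in the same fit) and 0 for both knockdowns against shSCR (0.0137% and 0%). With no minimum of reads for the less used site they were 52, 14 and 5 of 1870 members, where 4.53%, 0.612% and 0.146% of all events were called. With only the compared groups in the fit they were 10 for shSCR and 14 for shCPSF3 (3.80% and 2.84% of all events), and on unweighted PSI 13 for shCPSF3 (0.882%). With KD NI as reference they were 6 for shCPSF3 (3.11%). The cause of these changes was not tested. When 1 library was left out, the counts ranged from 3 to 16 for shSCR, from 1 to 13 for shCPSF3, from 1 to 6 for shUL1 and from 0 to 2 for Empty, while the share of all events ranged from 1.99% to 3.76%, 0.860% to 2.95%, 0.341% to 1.15% and 0.294% to 2.45%. By the PSI rule they ranged from 67 to 81 for shSCR, 30 to 61 for shCPSF3, 22 to 49 for shUL1, 30 to 58 for Empty and 31 to 42 for T7-TIA1, since the rule is met more easily by 1 library, and the share of all events from 1.57% to 1.72%, 0.486% to 0.951%, 0.424% to 0.877%, 0.928% to 1.41% and 0.782% to 1.00%. With at least 15 PSI between means 15, 9, 3, 3 and 5 members passed (0.638%, 0.235%, 0.185%, 0.342% and 0.147% of all events), and with no minimum range 49 for shCPSF3, 39 for shUL1, 22 for Empty and 28 for T7-TIA1 (0.899%, 0.772%, 0.982% and 0.593%). Without 1 replicate the median PSI ranged from 96.9 to 97.0 in KD NI, 97.2 to 97.3 in shSCR and 97.0 to 97.1 in shUL1#2, was 97.2 in Empty and shCPSF3#1 and 97.1 in shUL1#1, and went down to 96.9 in T7-TIA1. The share that used both sites ranged from 24.1% to 24.4% in KD NI, 23.6% to 23.9% in shSCR, 23.7% to 24.0% in shCPSF3#2, 23.9% to 24.2% in shUL1#1, 23.5% to 23.8% in shUL1#2, 23.9% to 24.0% in OE NI and 23.5% to 24.0% in Empty. The class medians ranged from 99.6 to 99.7 for CAGGAG, 0.266 to 0.781 for GAGCAG, 0.468 to 1.46 for GAGTAG and 99.5 to 99.7 for TAGGAG. At the coverage score LOW the medians were 97.3 in shUL1#1 and 97.2 in shUL1#2, the share 23.3% in shUL1#2, and the class medians 97.4 for CAGAAG, 83.2 for CAGCAG and 78.2 for TAGCAG, which reverses the order of the last 2. Genes of the 3′ splice site list that passed ranged from 3 to 8, 0 to 2 and 0 to 11 for shSCR, shCPSF3 and Empty when 1 library was left out. Galt, Larp4, Odf2, Pprc1 and Usp10, named on reads, kept their direction under the alternatives run, but not all their calls. Galt was called in 8 of 13 alternatives for shCPSF3 and 7 of 13 for shUL1, and Usp10 in 9 of 11 for shSCR, 11 of 13 for shCPSF3 and 8 of 13 for shUL1. Odf2 was called in 9 of 11, 11 of 13 and 10 of 13, Pprc1 in 10 of 11, 10 of 13 and 11 of 13, and Larp4 in 9 of 11 for shSCR. The difference of Nbas between shCPSF3 and shSCR was 12.3 PSI without shSCR replicate 1 and 26.6 PSI without shSCR replicate 2.

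The labels do not tie the replicate numbers to a shared culture or day. The paper states that samples were pooled in separate sequencing lanes, but not which of them shared a lane. Deviations of same-numbered libraries from their group means had a Pearson r between −0.148 and 0.129 in PSI over the 445 members. In log2 expression over all genes r was 0.674 to 0.949 among the day 12 KD groups, −0.127 to 0.0218 between these and KD NI, and 0.171 to 0.308 in the OE dataset, so day 12 KD libraries of the same number deviated together in expression. With the replicate number as a block, 36, 32 and 16 members were called on reads for shSCR, shCPSF3 and shUL1, against 7.74%, 4.54% and 2.53% of all events. They were 9 for shCPSF3 against KD NI, 6 higher and 3 lower (4.24% of all events), and 11 for shUL1 against KD NI, 6 higher and 5 lower (4.64%), and 0 between shRNAs of a gene, between both factors, for Empty and for T7-TIA1. In the same design 15, 6 and 2 genes of the list passed, where 5608, 4698 and 2768 of all 9435 genes did, with 3 for Empty and 0 for T7-TIA1. The members past the PSI rule in Empty and T7-TIA1 had medians of 78.5 and 51 reads per library.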
